A study of Mus musculus with 56 samples.

Results

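The apolipoproteins that coat high-density lipoprotein (HDL) and very-low-density lipoprotein (VLDL) were followed in liver mRNA of APOE*3Leiden.CETP mice. The 10 mouse genes Apoa1, Apoa2, Apoa4, Apoa5, Apoc1, Apoc2, Apoc3, Apoc4, Apob and Apoe were chosen by name out of 45513 genes in the count tables. Earlier results of these data were known when these genes were chosen. All 10 were above the filter on low counts in every comparison. Livers of 56 mice were sequenced, 8 in each of 7 groups, and the study asked how inhibitors of the BCR-ABL1 kinase, given against chronic myeloid leukemia, act on cardiovascular risk.

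All mice were female and carried the same human transgenes, APOE*3-Leiden with APOC1, and CETP. They were 9 to 14 weeks of age at the start and ate a Western-type diet with 15% cacao butter and 0.15% cholesterol. Control mice received vehicle (5% carboxymethyl cellulose) by gavage. Imatinib was given at 150 mg/kg in 2 gavages per day. Nilotinib (10 or 30 mg/kg) and ponatinib (3 or 10 mg/kg) were given in 1 gavage per day with a second gavage of vehicle. The seventh group received the nitric oxide synthase inhibitor L-NAME, at 0.12 to 0.20% in drinking water, with vehicle gavage. Human transgene reads were not counted apart from mouse reads, and how many of them were assigned to mouse Apoe and Apoc1 was not tested. There was no group without the transgenes, so all values below are those of transgenic mice on this diet.

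Apolipoproteins hold lipoprotein particles together and steer them to enzymes and receptors. Apob is the structural protein of VLDL and stays with the particle throughout its life, while the smaller apolipoproteins move between particles. Apoa1 and Apoa2 are the main proteins of HDL. The C apolipoproteins set how fast lipoprotein lipase removes triglyceride, and Apoe is the ligand by which remnants are taken up by the liver.

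The libraries held 5342379 to 17996732 reads on genes in 55 mice and 97473341 in L-NAME replicate 2 (median 7570238). The liver label was borne out by 9 hepatocyte genes, which together held 77300 to 160000 CPM (counts scaled to library size) in every mouse, with Alb alone at 44000 to 118000. Of 8 enterocyte markers, of the other tissue that makes Apoa4 and Apob, Sis, Cdx1, Cdx2 and Mep1a had no read in any mouse, Vil1, Lct and Cdh17 were between 0 and 1.88 CPM, and Fabp2, which is shared with liver, was at 33.3 to 135 CPM. The share of uniquely aligned reads outside annotated genes differed between groups. Control mice had 7.97% ± 0.422 (SD, n = 8), and the group on ponatinib 3 mg/kg had 8.53% ± 0.612. It was 9.75% ± 0.691 with nilotinib 10 mg/kg, 10.5% ± 1.38 with nilotinib 30 mg/kg, 11.0% ± 1.99 with ponatinib 10 mg/kg and 11.0% ± 2.44 with L-NAME, and 10.0% ± 1.82 with imatinib. The 3 libraries least like their own group were nilotinib 10 mg/kg replicates 1 and 3 and ponatinib 10 mg/kg replicate 4, whose median correlation of log2 CPM with their group was 0.847 to 0.864, against 0.882 to 0.959 in the other libraries. In bulk tissue, fewer cells of a type and less RNA per cell cannot be told apart.

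The 10 genes lie in 4 places of the mouse genome (GRCm38). Apoa1 (chr9:46228580-46230466, plus strand), Apoc3 (chr9:46232933-46235636, minus strand), Apoa4 (chr9:46240696-46243459, plus strand) and Apoa5 (chr9:46268633-46271919, plus strand) form a cluster on chromosome 9. Apoc2 (chr7:19671579-19677941), Apoc4 (chr7:19678083-19681479), Apoc1 (chr7:19689481-19692660) and Apoe (chr7:19696109-19699188) form another on chromosome 7, all on the minus strand. Apoa2 (chr1:171225054-171226379, plus strand) and Apob (chr12:7977648-8016835, plus strand) stand alone. Apob is also by far the longest, with 13934 exon bases against 537 for Apoa2 and 2537 for Apoc4. An antisense gene, Gm10680, shares 632 exon bases with Apoa4 and held 4357 reads in all 56 mice together. The strand setting of the counting is not given in the sources used here, so reads of Apoa4 and Gm10680 cannot be told apart in the shared part.

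Promoter sequence is shown for Apoa2 and Apoc4, which had among the largest rises though they lie on different chromosomes, and for Apob, which moved the opposite way. Each is the 150 bases just before the annotated gene start, 5′ to 3′ on the gene's strand, from RefSeq on GRCm38.p6. Capitals mark a match, on either strand, to the TATA box TATAAA, the CCAAT box, the nuclear receptor half-site AGGTCA or the HNF4A motif's end AGTCCA. None of these motifs overlap each other in the windows shown.
Apoa2 (chr1:171224904-171225053, plus strand): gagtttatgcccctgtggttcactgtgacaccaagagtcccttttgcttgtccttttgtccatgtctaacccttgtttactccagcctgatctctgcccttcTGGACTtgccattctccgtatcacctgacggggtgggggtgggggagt
Apoc4 (chr7:19681480-19681629, minus strand): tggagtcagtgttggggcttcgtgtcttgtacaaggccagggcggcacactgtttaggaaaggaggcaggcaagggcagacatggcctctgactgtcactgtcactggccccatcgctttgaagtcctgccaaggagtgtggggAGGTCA
Apob (chr12:7977498-7977647, plus strand): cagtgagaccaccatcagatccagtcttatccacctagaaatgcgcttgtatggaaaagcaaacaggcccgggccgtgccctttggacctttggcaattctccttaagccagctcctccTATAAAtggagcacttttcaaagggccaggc

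The Apob window held TATAAA with its first base at -31, a motif of 7.57% of the 32851 mouse promoter entries over windows of the same length. The Apoa2 window held AGTCCA on the minus strand (6.86% of entries) and the Apoc4 window AGGTCA (8.58% of entries). A matching window was at hand for 7 of the 10 genes. In the other 4, TATAAA was found at Apoa5, AGGTCA at Apoc2, and none of the 4 motifs at Apoa1 and Apoe. CCAAT, in 24.5% of entries, was in none of the 7 windows. Apoa1, Apoa2, Apoc4 and Apoe thus had no match in common among these motifs.

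Levels were compared between genes as TPM, counts divided by merged exon length and scaled to a common sum. In control mice the order was Apoe with 28800 ± 2770 TPM (SD, n = 8), Apoa2 with 17260 ± 1940, Apoa1 with 10470 ± 2150, Apoc1 with 4473 ± 472, Apoc3 with 2406 ± 244, Apoa5 with 1231 ± 274, Apob with 751 ± 46.5, Apoc2 with 501 ± 65.5, Apoa4 with 462.5 ± 65.3 and Apoc4 with 320.7 ± 34.4. Each gene was above the next in all 8 control mice, apart from Apoc2 and Apoa4, whose order held in 6 of 8. Apoe and Apoa2 were among the 7 most abundant transcripts of the liver in every one of the 56 mice. The middle of the order was the same in all mice, with Apoc1 at position 4 and Apoc3 at position 5 in each of the 56. The upper and lower ends were not. Apoe was above Apoa2 in 46 of the 56 mice. Apob was above Apoc2 in all 8 control mice but in 27 of all 56 mice, and its position ranged from 7 to 10. Together the 10 genes took 3.98% ± 0.34 of the reads on genes in control mice and 5.69% ± 0.47 in L-NAME mice (SD, n = 8 each), with 5.22% ± 0.98 under imatinib, 5.36% ± 0.43 under nilotinib 30 mg/kg and 4.28% ± 0.3 under ponatinib 3 mg/kg.

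**Figure D1:**
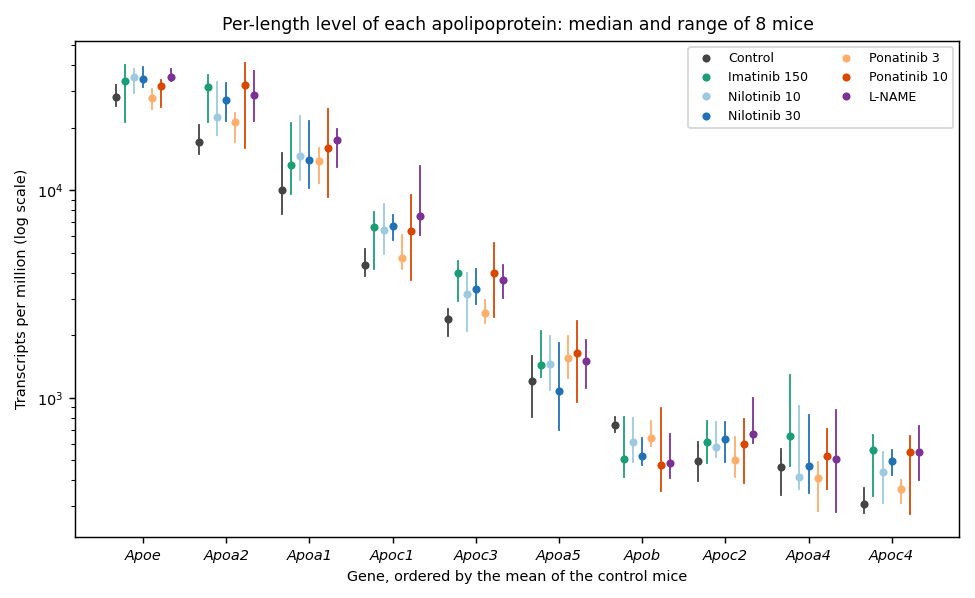
Per-length level of the 10 apolipoprotein genes on a log scale of TPM. Points are the medians and lines the ranges of 8 mice in each of 7 groups, and genes are ordered by their control mean, from Apoe (28800 TPM) to Apoc4 (320.7 TPM). The control points of Apob lie above those of Apoc2, Apoa4 and Apoc4, and the ranges of these 4 genes overlap in every group but control and ponatinib 3 mg/kg.

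Each group was compared with the same 8 control mice in 1 fit of all 56 mice by edgeR's quasi-likelihood test, over 14314 genes, and a gene was called at a Benjamini-Hochberg adjusted p-value below 0.05. With imatinib, 8 of the 10 apolipoproteins were called (10.3% of all genes tested), all higher than in control (5.69% of all genes). With ponatinib 10 mg/kg, 9 of 10 were called (13.1% of all genes), 8 higher (7.24% of all genes) and Apob lower (5.87% of all genes). With L-NAME, 8 of 10 were called (11.8% of all genes), 7 higher (5.55% of all genes) and Apob lower (6.24% of all genes). With nilotinib 30 mg/kg, 7 of 10 were called (5.77% of all genes), 6 higher (2.34% of all genes) and Apob lower (3.43% of all genes). Apoa1, Apoa2, Apoc1, Apoc3, Apoc4 and Apoe were called higher in each of these 4 groups, including L-NAME, which acts on a different enzyme from the kinase inhibitors.

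The median log2 fold change of the 10 genes was 0.68 with imatinib, 0.69 with ponatinib 10 mg/kg, 0.69 with L-NAME and 0.49 with nilotinib 30 mg/kg. The median over all genes tested lay between -0.02 and 0.03 in these comparisons. At the low doses no apolipoprotein was called by edgeR's quasi-likelihood test. With nilotinib 10 mg/kg (1.41% of all genes called) the median was 0.37, and 8 of 10 genes had an unadjusted p below 0.05 (14.2% of all genes). DESeq2 called 6 members (504 of 8764 genes) and limma with quality weights 8 (1240 of 14314 genes). With ponatinib 3 mg/kg (0.0419% of all genes called) the median was 0.26, and 3 of 10 had an unadjusted p below 0.05 (9.96% of all genes). There DESeq2 called 0 members (48 of 4324 genes) and limma 4 (571 of 14314 genes). These values share their control mice, so they are not independent of each other.

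When the percentage of reads falling outside genes entered the fit as a covariate, the calls fell to 5 of 10 with imatinib, 4 with ponatinib 10 mg/kg, 4 with L-NAME and 0 with nilotinib 30 mg/kg. Calls over all 14314 genes fell too, in the same order from 1471 to 653, 1877 to 369, 1688 to 258 and 826 to 96. Apoa1 and Apoc4 were called in all of the first 3 of these groups under the covariate, and Apob in none. Control mice had 7.6 to 8.7% of such reads. Every mouse given nilotinib 30 mg/kg (from 9.4%), ponatinib 10 mg/kg (from 8.9%) or L-NAME (from 8.8%) had more. Treatment and this share thus cannot be fully told apart in this fit.

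**Figure D2:**
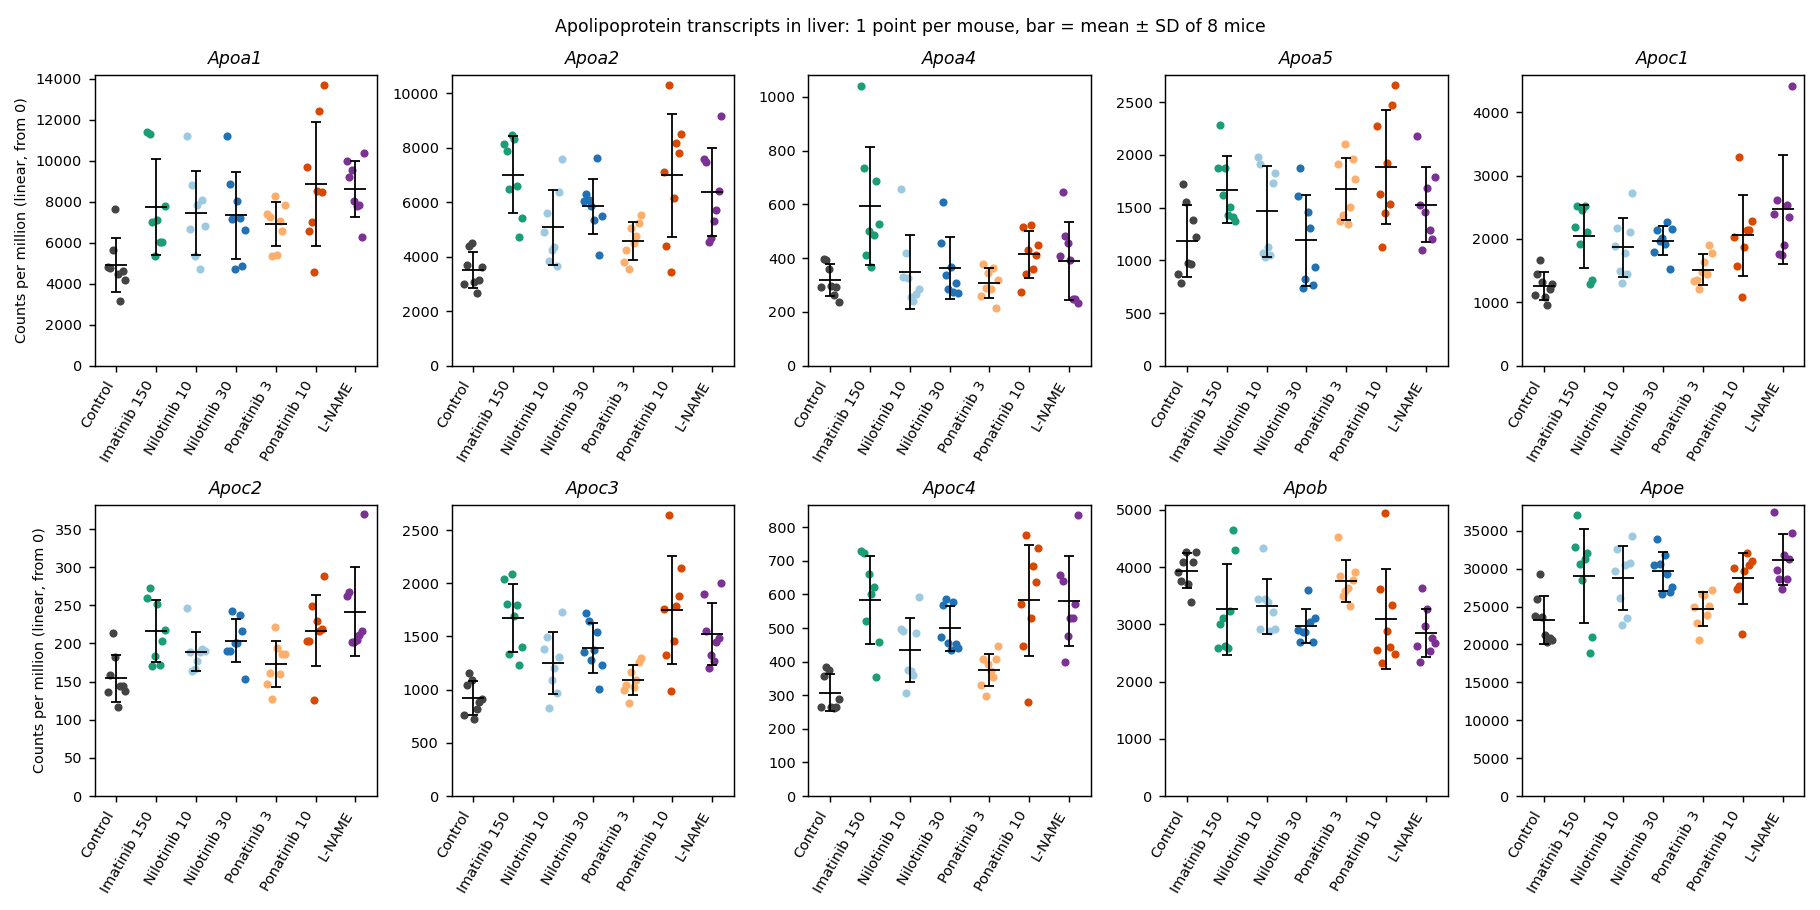
CPM of each apolipoprotein gene in each of 56 mice on linear axes from 0. Points are mice, and bars are the mean ± SD of 8 mice per group. All 8 imatinib and all 8 L-NAME points of Apoa2 lie above the control points, while 7 of 8 L-NAME points of Apob lie below all control points.

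Liver mRNA of both main HDL proteins, Apoa1 and Apoa2, was called higher with imatinib, nilotinib 30 mg/kg, ponatinib 10 mg/kg and L-NAME. The proteins themselves were not measured here. The paper reports lower plasma HDL cholesterol at the low and the high dose of ponatinib. In its liver data it names Apoa1, Apoa2, Apoc2 and Apoc4 among genes regulated by imatinib, at an unadjusted p below 0.01. It describes similar but lesser effects of ponatinib on this set of genes and none after nilotinib. Here Apoa1, Apoa2 and Apoc4 were also called higher with nilotinib 30 mg/kg, though not under the covariate. For Apoa2, which stabilises HDL particles, control mice ranged from 2662 to 4519 CPM with a median of 3382. Imatinib mice ranged from 4740 to 8470 CPM with a median of 7240, and L-NAME mice from 4536 to 9143 CPM with a median of 6054. Neither group overlapped with control. Here and below, how many of all genes tested had no overlap with control was not counted. The log2 fold change of Apoa2 was 0.99 with imatinib (SE 0.16, adjusted p = 3.69e-05) and 0.85 with L-NAME (SE 0.16, adjusted p = 0.000314). With ponatinib 10 mg/kg Apoa2 ranged from 3423 to 10300 CPM with a median of 7461, so that 6 of 8 mice were above every control mouse, and the log2 fold change was 0.99 (adjusted p = 4.83e-05). Nilotinib 30 mg/kg gave a smaller value, 0.73 (adjusted p = 0.00363).

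Apoa1, the structural protein of HDL and activator of LCAT, ranged from 3162 to 7624 CPM in control mice with a median of 4703. It had a median of 8610 CPM with L-NAME and 8509 CPM with ponatinib 10 mg/kg, and 7 and 5 of 8 mice lay above every control mouse. Its log2 fold change was 0.81 with L-NAME (adjusted p = 0.00139), 0.85 with ponatinib 10 mg/kg (adjusted p = 0.000792), 0.66 with imatinib (adjusted p = 0.0114) and 0.58 with nilotinib 30 mg/kg (adjusted p = 0.0393). The groups overlapped for Apoa1 in each of these comparisons.

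Apoa4 and Apoa5 are neighbours of Apoa1 but did not follow it in every group. Apoa4, made on feeding and carried on HDL and chylomicrons, was called with imatinib and in no other of the 6 comparisons with control by edgeR's quasi-likelihood test, while limma with quality weights also called it with ponatinib 10 mg/kg. It ranged from 235.3 to 396.2 CPM in control mice (median 296.1) and from 368.6 to 1042 CPM in imatinib mice (median 513.7), with 7 of 8 mice above every control mouse. Its log2 fold change was 0.91 with imatinib (SE 0.2, adjusted p = 0.00155) and between -0.05 and 0.38 in the other groups. In a direct comparison Apoa4 was higher with imatinib than with nilotinib 30 mg/kg by 0.71 on the log2 scale (95% interval 0.32 to 1.11, adjusted p = 0.0248). Against ponatinib 10 mg/kg the difference was 0.52 (0.13 to 0.92) and did not pass the test (adjusted p = 0.237).

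Apoa5, a rare plasma protein that promotes triglyceride clearance by lipoprotein lipase, was called with ponatinib 10 mg/kg and in no other of these 6 comparisons by edgeR's quasi-likelihood test in the fit of all mice. Control mice ranged from 781 to 1723 CPM (median 1095), ponatinib 10 mg/kg mice from 1127 to 2665 CPM (median 1776), and nilotinib 30 mg/kg mice from 733.8 to 1875 CPM (median 1121). The log2 fold change was 0.67 with ponatinib 10 mg/kg (SE 0.18, adjusted p = 0.00901) and 0.01 with nilotinib 30 mg/kg (95% interval -0.36 to 0.38). Ponatinib 10 mg/kg and nilotinib 30 mg/kg differed directly by 0.67 (adjusted p = 0.0395), with overlap between the groups, and this call was lost in the fit without L-NAME and in a fit of these 16 mice alone. Imatinib and ponatinib 3 mg/kg both gave a log2 fold change of 0.50 (adjusted p = 0.0693 and 0.3), and all 8 mice of each group were above the control mean. Apoa5 was called with imatinib by DESeq2, by limma and in the fit of 16 mice, and with ponatinib 3 mg/kg by limma. The difference of imatinib minus ponatinib 10 mg/kg in Apoa5 was -0.17 (95% interval -0.54 to 0.19, adjusted p = 0.839).

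Among the C apolipoproteins, Apoc3, which inhibits lipoprotein lipase and remnant uptake, had no overlap with control in 2 groups. Control mice ranged from 723 to 1158 CPM (median 898), imatinib mice from 1227 to 2090 CPM (median 1743) and L-NAME mice from 1200 to 1998 CPM (median 1465). Its log2 fold change was 0.86 with imatinib (SE 0.14, adjusted p = 5.48e-05), 0.92 with ponatinib 10 mg/kg (adjusted p = 4.47e-05), 0.72 with L-NAME (adjusted p = 0.000516) and 0.59 with nilotinib 30 mg/kg (adjusted p = 0.00732). Apoc2, the activator that lipoprotein lipase requires, rose less than its inhibitor with imatinib and ponatinib 10 mg/kg. Its log2 fold change was 0.49 in both (adjusted p = 0.0115 and 0.00844), 0.65 with L-NAME (adjusted p = 0.000681) and 0.40 with nilotinib 30 mg/kg (adjusted p = 0.0587). The difference between these 2 genes was not tested.

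Apoc4, a minor VLDL component, rose in 4 groups. Control mice ranged from 262.3 to 385.1 CPM, with medians of 277.4 CPM in control, 612.6 with imatinib, 603.7 with ponatinib 10 mg/kg, 550.4 with L-NAME and 463.8 with nilotinib 30 mg/kg. All 8 mice given nilotinib 30 mg/kg and all 8 given L-NAME were above every control mouse. An exact permutation test of groups that separate in this way always gives its smallest two-sided p (0.000155 for 8 against 8 mice, not adjusted). It thus adds nothing to the ranges. The log2 fold change was 0.92 with imatinib (adjusted p = 3.22e-05), 0.92 with ponatinib 10 mg/kg (adjusted p = 4.47e-05), 0.91 with L-NAME (adjusted p = 5.89e-05) and 0.70 with nilotinib 30 mg/kg (adjusted p = 0.0028). Apoc1, which slows remnant uptake, reached 0.97 with L-NAME (SE 0.16, adjusted p = 7.66e-05), where its 8 mice ranged from 1751 to 4419 CPM against 950 to 1661 CPM in control. It rose by 0.70 with imatinib, 0.70 with ponatinib 10 mg/kg and 0.65 with nilotinib 30 mg/kg (adjusted p = 0.00332, 0.00215 and 0.01).

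Apob, the core protein of VLDL, moved the other way. Control mice were tightly grouped between 3391 and 4267 CPM (median 3998). L-NAME mice ranged from 2348 to 3636 CPM (median 2719) and nilotinib 30 mg/kg mice from 2687 to 3592 CPM (median 2883), so that 7 of 8 mice in each group were below every control mouse. The log2 fold change of Apob was -0.46 with L-NAME (SE 0.12, adjusted p = 0.00588), -0.41 with nilotinib 30 mg/kg (adjusted p = 0.0286) and -0.35 with ponatinib 10 mg/kg (adjusted p = 0.0426). With imatinib it was -0.27 and did not pass the test (adjusted p = 0.147), with 6 mice below and 2 above every control mouse. A mouse given ponatinib 10 mg/kg was also above every control mouse, at 4950 CPM. Without the 3 libraries with over 14% of reads outside genes, Apob was no longer called with ponatinib 10 mg/kg, and neither was Apoe.

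Apoe, the most abundant of the 10 transcripts in control mice, had the smallest rise among the members called higher in each of the 4 groups with calls. It ranged from 20280 to 29290 CPM in control mice (median 22400) and from 27310 to 37490 CPM with L-NAME (median 30520), where 5 of 8 mice were above every control mouse. Its rise on the log2 scale was 0.43 with L-NAME (SE 0.11, adjusted p = 0.00426), 0.35 with nilotinib 30 mg/kg (adjusted p = 0.0315), 0.32 with imatinib (adjusted p = 0.0381) and 0.31 with ponatinib 10 mg/kg (adjusted p = 0.0422). With imatinib 1 mouse was below every control mouse, and Apoe was not called there without the 3 libraries with over 14% of reads outside genes. Apoe is also made by macrophages, and the 10 Kupffer cell markers together held 904 to 1750 CPM in control, 535 to 1130 CPM with imatinib and 867 to 2110 CPM with L-NAME. None of these 10 markers was at 0 throughout a group, and their part in the Apoe values was not tested.

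**Figure D3:**
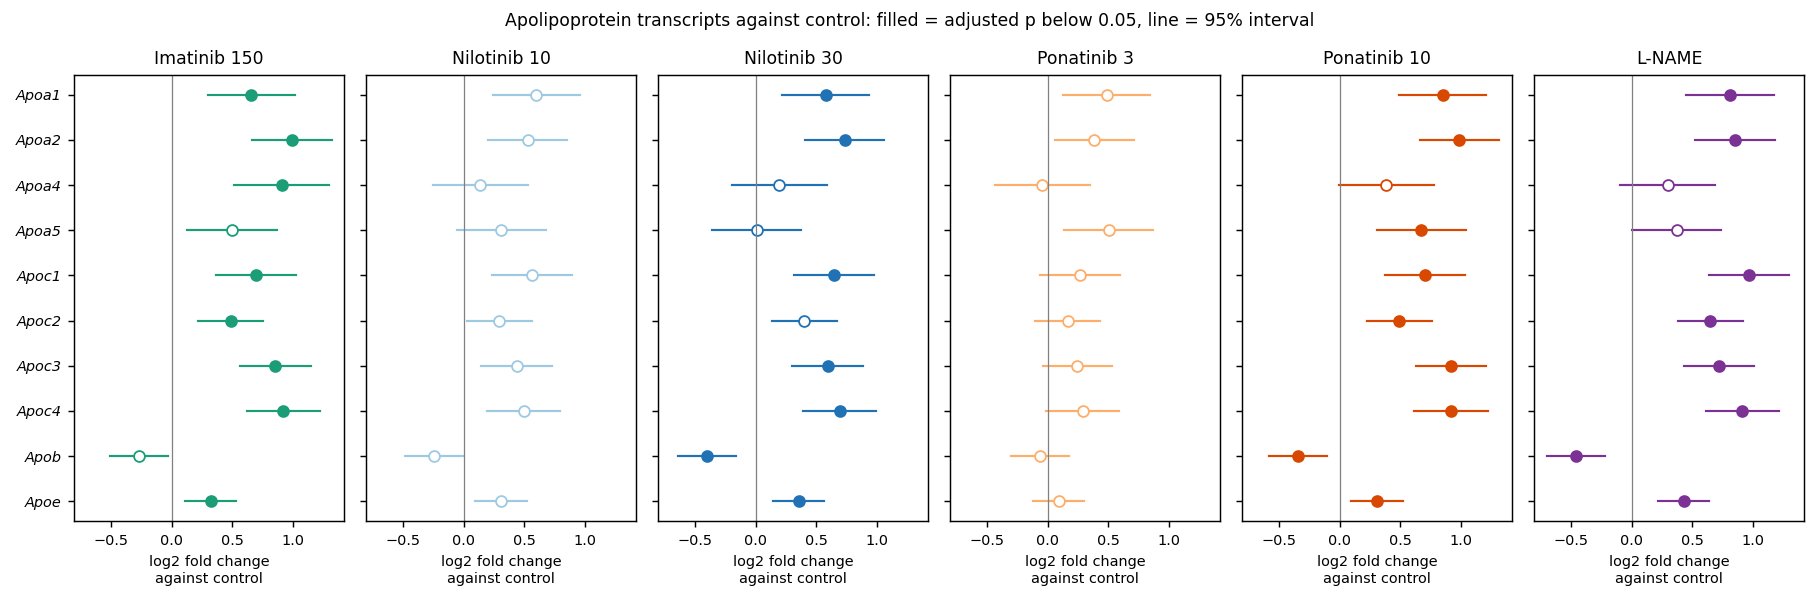
Log2 fold change of the 10 apolipoprotein genes against control in 6 groups. Points are filled where the adjusted p-value of edgeR's quasi-likelihood test was below 0.05, and lines are 95% intervals. Apob lies left of 0 in all 6 panels, from -0.46 with L-NAME to -0.07 with ponatinib 3 mg/kg, and Apoa2 lies right of 0 in all 6, from 0.38 with ponatinib 3 mg/kg to 0.99 with imatinib.

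Across all genes, the fold change against control was related to transcript length. Over the 14262 tested genes with a known exon length, Spearman's correlation across genes of the log2 fold change with length was -0.27 with imatinib, -0.17 with nilotinib 10 mg/kg, -0.25 with nilotinib 30 mg/kg, -0.18 with ponatinib 3 mg/kg, -0.23 with ponatinib 10 mg/kg and -0.26 with L-NAME. Genes are not independent replicates, and all 6 values share the control mice. With L-NAME the median log2 fold change was 0.31 over the 988 genes under 1000 bases and -0.10 over the 5577 genes of 5000 bases and more. Among the 1000 most abundant genes these medians were 0.66 (28 genes) and -0.25 (292 genes). Set beside them, Apoa2, Apoc1 and Apoc2, all under 1000 bases, had 0.85, 0.97 and 0.65 with L-NAME, and Apob had -0.46. Apoa2 and Apoc1 thus lay further from 0 than both medians of their class.

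Apoc4 and Apoa5 have between 2500 and 5000 exon bases, a class in which the median over all genes was -0.01 with ponatinib 10 mg/kg. Apoc4 had 0.92 and Apoa5 0.67 there. Both lie close to the lower edge of this class (2537 and 2522 merged exon bases), and the longest transcript of Apoc4 has 2096 bases. In the class of 1000 to 2500 bases the median with ponatinib 10 mg/kg was 0.19, and 0.24 among the 1000 most abundant genes. Apoc4 lay above the median of its class by merged exons in all 6 comparisons. Apoa5 lay below that median with nilotinib 30 mg/kg (0.01 against 0.04). With the trend on length removed by offsets per library, 5 of 10 members were called with imatinib, 4 with nilotinib 30 mg/kg, 6 with ponatinib 10 mg/kg and 7 with L-NAME. Of all 14314 genes, 1110, 499, 1513 and 1232 were called there, in the same order. Apoa2, Apoc1, Apoc3 and Apoc4 were called in all 4 of these groups under the offsets, Apob only with L-NAME (-0.34) and Apoe in none. Apoa4 kept 0.77 with imatinib.

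**Figure D4:**
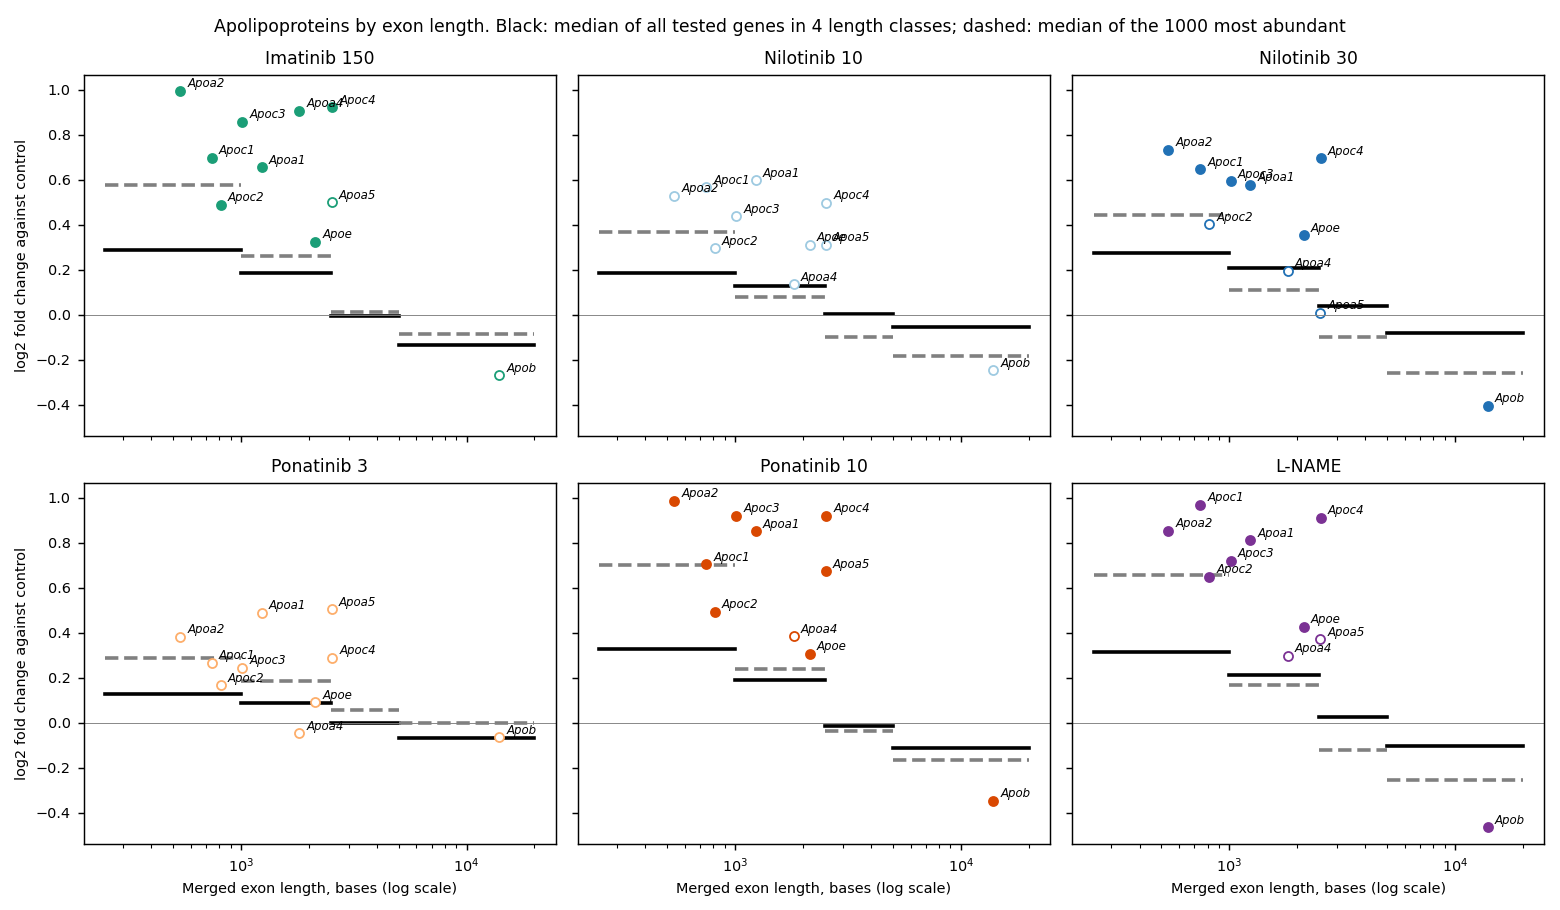
Log2 fold change of each apolipoprotein gene against its merged exon length on a log axis, in 6 comparisons with control. Filled points had an adjusted p-value below 0.05, black lines are medians of all tested genes in 4 length classes, and dashed lines those of the 1000 most abundant genes. The black lines step down from left to right in all 6 panels, for L-NAME from 0.31 to -0.10, and Apob at 13934 bases lies lowest in every panel.

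The dose and the compound were then compared directly. Ponatinib 10 mg/kg against 3 mg/kg gave 3 called members (1.39% of all genes called), all higher at the high dose. Apoc3 differed by 0.67 (SE 0.14, adjusted p = 0.0118), Apoc4 by 0.63 (adjusted p = 0.0214) and Apoa2 by 0.60 (adjusted p = 0.0402). None of the 3 was called without the 3 libraries over 14% of reads outside genes, or in a fit of these 16 mice alone, while 6 members were called without the 3 libraries least like their group. Over all genes these settings called 37 of 14454, 32 of 12464 and 731 of 14610. Nilotinib 30 against 10 mg/kg gave 0 called members by edgeR's quasi-likelihood test, by DESeq2 and by limma, and 0 with an unadjusted p below 0.05. Of all genes, 0% were called by edgeR, and DESeq2 called 2 genes. The widest 95% interval there was that of Apoa4, -0.33 to 0.45 on the log2 scale.

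Nilotinib and ponatinib had 1 nominal dose in common, 10 mg/kg in 1 gavage per day, the low dose of nilotinib and the high dose of ponatinib. For these drugs the paper describes exposures similar to those of patients at the low doses, so plasma exposure was not matched. At this nominal dose the 10 members were compared in 10 tests adjusted together with all genes. None was called (2.06% of all genes called), and 3 had an unadjusted p below 0.05 (15.3% of all genes). DESeq2 (518 of 12926 genes called) and limma (331 of 14314) each called 1 member. The nearest was Apoc3, higher with ponatinib by 0.48 (95% interval 0.19 to 0.77, adjusted p = 0.0558), and it was called without ponatinib 10 mg/kg replicate 2. Apoe differed by -0.00 (95% interval -0.22 to 0.21). The other pairs differed in nominal dose too. Imatinib 150 mg/kg against nilotinib 30 mg/kg gave 1 called member, Apoa4 (3.59% of all genes called). Ponatinib 10 mg/kg against nilotinib 30 mg/kg also gave 1, Apoa5 (1.88% of all genes called). Imatinib 150 mg/kg against ponatinib 10 mg/kg gave none by edgeR's quasi-likelihood test, DESeq2 or limma (1.08% of all genes called), with 1 of 10 at an unadjusted p below 0.05 (10.7% of all genes) and a median difference of 0.00.

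Mice of the same group differed among themselves in a shared way. After subtraction of group means, Pearson's r of log2 CPM over 56 mice was 0.92 between Apoa2 and Apoc4, 0.92 between Apoc3 and Apoc4 and 0.91 between Apoa2 and Apoc3, genes on chromosomes 1, 7 and 9. The 36 pairs without Apob had a median r of 0.52 (range -0.19 to 0.92), and the 9 pairs with Apob a median of -0.48 (range -0.68 to 0.14). The 6 pairs within the chromosome 7 cluster had a median of 0.72, the 6 pairs within the chromosome 9 cluster 0.45, and the 33 pairs on different chromosomes 0.37 (range -0.68 to 0.92), which include the 9 pairs with Apob and the 3 highest values named above. These are descriptions, and the points share library and depth. The share of reads outside genes, centred in the same way, had an r of 0.52 with Apoa2, 0.49 with Apoc1, -0.60 with Apob and -0.05 with Apoa1 over the 56 mice.

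The genes most like each member were also found this way. Apoa1 was nearest to Fabp1, the liver fatty acid binding protein (r = 0.74), and to Serpina1a (0.74). Apoa5 was nearest to Acaa2, of mitochondrial beta-oxidation (0.74). Apoa2 was nearest to Gm8566 (0.91) and Sod1 (0.89), Apoc4 to Ndufa4 (0.89) and Sod1 (0.89), and Apoc1 to Ndufa4 (0.88) and Gm8566 (0.86). Apoc3 and Apoe had Ttc36 in common (0.84 and 0.81), with Ptms (0.86) and Proc, the anticoagulant protein C (0.81), as the other neighbours. Apoc2 was nearest to Atp5j2 (0.74) and Rps15 (0.71), and Apoa4 to Serpina3k (0.68) and Egfr (0.59). Apob had Pzp (0.86) and Lamp2 (0.85), with 6414 and 9552 exon bases.

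**Figure D5:**
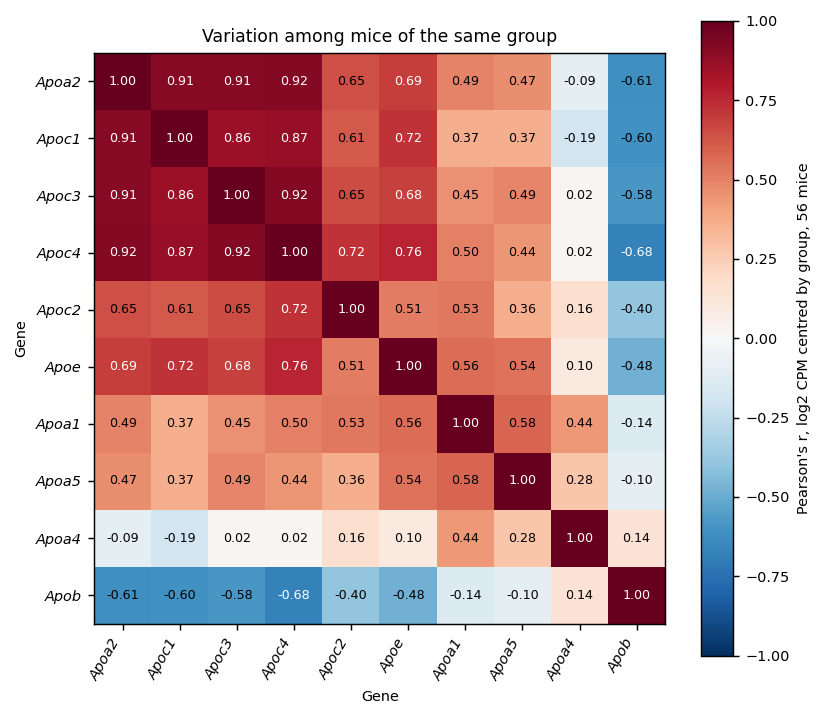
Pearson's r between the 10 apolipoprotein genes over 56 mice, of log2 CPM with the group means subtracted. Red is positive and blue negative, and each cell prints its r. Apoa2, Apoc1, Apoc3 and Apoc4 form a block of values from 0.86 to 0.92, and the row of Apob is negative except with Apoa4 (0.14).

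Other genes of lipoprotein metabolism were called in both directions. Their values come from the fit without length offsets or covariate, and the part of transcript length in them was not tested. For reference, the shares of all genes called lower and higher were 6.24% and 5.55% with L-NAME, 5.87% and 7.24% with ponatinib 10 mg/kg, 4.58% and 5.69% under imatinib, 3.43% and 2.34% for nilotinib 30 mg/kg, and 0.943% and 0.468% for nilotinib 10 mg/kg. Of 22 genes of VLDL assembly and secretion, 5 were lower and none higher with L-NAME (median log2 fold change -0.11), 3 were lower and none higher with nilotinib 30 mg/kg, and 1 was lower with nilotinib 10 mg/kg. With imatinib 2 were higher and 1 lower, and with ponatinib 10 mg/kg 1 was higher and 1 lower. Mttp, which loads lipid onto Apob, changed by -0.57 with L-NAME (adjusted p = 9e-04) and -0.39 with nilotinib 30 mg/kg (adjusted p = 0.0372). Apob was called lower in both of these groups and also with ponatinib 10 mg/kg. Mia2, of the export of large cargo from the endoplasmic reticulum, was at 300.8 ± 44.3 CPM in control mice, as against 202.3 ± 28.2 CPM after nilotinib 30 mg/kg (SD, n = 8, log2 fold change -0.57, adjusted p = 0.000373). Sar1b, the GTPase that starts the vesicle coat for export from the endoplasmic reticulum, rose by 0.51 with imatinib (adjusted p = 0.000508).

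Of 15 genes of HDL formation and remodelling, 3 were lower and 2 higher with imatinib, 4 lower and 1 higher with ponatinib 10 mg/kg, and 1 lower with L-NAME. Lpl fell from 140.4 ± 52.8 to 41.7 ± 16 CPM with imatinib (log2 fold change -1.75, adjusted p = 3.35e-05), and the sterol transporter Abcg1 from 48.56 ± 15.7 to 17.51 ± 5.18 CPM (-1.48, adjusted p = 5.22e-05). With ponatinib 10 mg/kg Lpl fell by 1.10 and Abcg1 by 1.33 on the log2 scale (adjusted p = 0.00535 and 0.000184). Both genes are also expressed by macrophages. Of 10 Kupffer cell markers, 3 were lower and none higher with imatinib, among them Cd5l (-1.23, adjusted p = 0.000245), while 2 were higher and none lower with ponatinib 10 mg/kg. Abca1, which loads lipid onto Apoa1, changed by -0.48 with imatinib (adjusted p = 0.01) and -0.43 with ponatinib 10 mg/kg (adjusted p = 0.0178), groups in which Apoa1 rose. Apoa1 also rose with L-NAME and nilotinib 30 mg/kg, where Abca1 was not called (-0.23 and -0.13, adjusted p = 0.273 and 0.664).

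Of 12 genes of remnant and LDL uptake, 3 were lower with L-NAME, 2 with nilotinib 30 mg/kg, 1 with nilotinib 10 mg/kg and 1 with imatinib, none being higher in these groups, and with ponatinib 10 mg/kg 2 were lower and 1 higher. Lrp1, a remnant receptor that binds Apoe, fell by 0.69 on the log2 scale with imatinib (adjusted p = 0.000677) and by 0.66 with nilotinib 30 mg/kg (adjusted p = 0.002), and was also called lower with nilotinib 10 mg/kg, ponatinib 10 mg/kg and L-NAME. Of 25 regulators of apolipoprotein genes, 4 were lower and none higher with nilotinib 30 mg/kg, 3 were lower with L-NAME and 1 with nilotinib 10 mg/kg, 2 were lower and 1 higher with imatinib, and 1 was lower and 1 higher with ponatinib 10 mg/kg. With nilotinib 30 mg/kg, Ppara went from 45.21 ± 29.3 CPM in control to 14.76 ± 4.19 CPM (SD, n = 8; log2 fold change -1.61, adjusted p = 0.000262) and Rxra from 505 ± 97 to 334.3 ± 60.6 CPM (-0.59, adjusted p = 0.00203). Hnf4a, a main activator of these promoters, changed by -0.53 with nilotinib 30 mg/kg (adjusted p = 0.00643) and -0.47 with L-NAME (adjusted p = 0.00883).

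Of the 10 other apolipoprotein genes tested, 4 were higher with ponatinib 10 mg/kg and 1 each with imatinib and L-NAME. Apoh, a plasma glycoprotein that binds phospholipid, was called in all 3, with 0.57 under ponatinib 10 mg/kg (adjusted p = 0.000245). Saa1 and Saa2, acute-phase proteins of HDL, were called with ponatinib 10 mg/kg through 1 mouse. In replicate 2 Saa2 stood at 13380 CPM, against 5.44 to 62.9 CPM in the other 7 mice. Without this mouse the log2 fold change of Saa2 was -0.88 and not called (adjusted p = 0.381), and the 9 apolipoproteins of the main list called with ponatinib 10 mg/kg were called as before.

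Markers of some other cell types were called in some groups. Of 10 stellate cell markers, 2 were lower and 1 higher with imatinib, and the same with ponatinib 10 mg/kg. None of 10 sinusoidal endothelial and 6 tested cholangiocyte markers was called in any of the 6 comparisons with control. With imatinib, the stellate cell collagens Col3a1 (-2.60, adjusted p = 1.35e-05) and Col1a1 (-3.03, adjusted p = 3.7e-05) and the leukocyte genes Cd74 (-1.42, adjusted p = 0.00116) and Ptprc (-0.98, adjusted p = 0.00762) fell on the log2 scale. Col1a1 (-2.78), Col3a1 (-1.93) and Cd74 (-1.31) fell with ponatinib 10 mg/kg too (adjusted p = 9.07e-05, 0.00044 and 0.00173), and Col1a1 with ponatinib 3 mg/kg (-2.31, adjusted p = 0.0248). Ecm1, also of the 10 stellate cell markers, rose by 0.60 with imatinib and by 0.56 with ponatinib 10 mg/kg (adjusted p = 0.0198 and 0.0273). Clec4f of Kupffer cells (0.69, adjusted p = 0.00884) and Fabp2, shared with gut (0.58, adjusted p = 0.0481), rose with L-NAME. Clec4f rose with nilotinib 30 mg/kg (0.635, adjusted p = 0.0282) and ponatinib 10 mg/kg (0.61, adjusted p = 0.0216) too. The hepatocyte genes Ttr (0.73, adjusted p = 0.000331) and Serpina1b (0.56, adjusted p = 0.00095) rose with ponatinib 10 mg/kg and Cps1, of the urea cycle, fell (-0.86, adjusted p = 0.00421), while the median of the 9 hepatocyte genes was 0.10 there. Ttr and Serpina1b also rose with imatinib (0.45 and 0.55, adjusted p = 0.0307 and 0.00165), and Serpina1b with L-NAME (0.39, adjusted p = 0.023). Cps1 also fell with L-NAME, imatinib and both doses of nilotinib, by 0.81 to 0.92 on the log2 scale. The part of cell type shares in the apolipoprotein values was not tested.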

How the data were processed

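Liver RNA of 56 mice was sequenced after poly(A) selection. The authors deposited raw counts of reads per gene, made, per the labels' processing notes, with TopHat2 2.0.14, Bowtie2 2.1.0, SAMtools 0.1.18 and HTSeq 0.6.1p1 on GRCm38. Reads with more than 1 alignment were counted on no gene. Of 45513 identifiers, 44585 matched GENCODE vM21. Libraries were normalized by TMM and filtered with filterByExpr, and 14314 genes were fitted in edgeR 4.0.16 (R 4.3.3, quasi-likelihood, 7 groups, n = 8). The Benjamini-Hochberg adjusted threshold was 0.05, and 95% intervals used 49 residual degrees of freedom. The study's own cut-off, an unadjusted p of 0.01, was an alternative, as were DESeq2 1.42.0 and limma 3.58.1. Scripts were tested on simulated data. Replicates are separate mice, numbered in accession order, and no batch was labelled. Log2 CPM used a prior count of 2. Beside the members, the text names the 2 nearest genes of each member and, of each list, mainly the 2 called genes with the lowest adjusted p. Others (Mttp, Abca1, Hnf4a, Saa1, Ecm1, Cps1) were chosen after their values were seen. Some of these genes are not reported here. Members and lists were chosen with earlier results of these data known.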

Additional observations from a re-analysis of the deposited data

Results flagged for a closer look

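In 70 sets of 8 values (10 apolipoprotein genes in 7 groups), 6 held a mouse whose gap to its nearest neighbour on the log2 CPM scale was large against the range of the group (Dixon's test at 95%). Chance gives about 1 in 20. L-NAME replicate 8 was the highest of its group for both Apoc1, at 4419 CPM with the next mouse at 2621 CPM, and Apoc2, at 369.1 CPM with the next at 267 CPM. Ponatinib 10 mg/kg replicate 4 was the lowest of its group for both Apoc2, at 125.4 CPM with the next at 203.4 CPM, and Apoe, at 21330 CPM with the next at 27300 CPM. This library was also among the 3 least like their own group. In nilotinib 10 mg/kg mice, replicate 1 was the highest for Apoc2, at 246 CPM with the next at 192.6 CPM, and replicate 3 the highest for Apob, at 4333 CPM with the next at 3442 CPM. Both of these libraries were the others least like their group.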

How the results depend on the processing

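No paired analysis was made, because the groups are separate mice and the labels pair none of them across groups. All values here are numbers of the 10 members called unless said otherwise, and the cause of a move was not tested. Against control, the counts for imatinib, nilotinib 30 mg/kg, ponatinib 10 mg/kg and L-NAME stayed within 1.5 times with other scaling factors, no filter, fewer groups in the fit, DESeq2, limma and each set of libraries left out. With the share of reads outside genes as a covariate they were 5, 0, 4 and 4, and it was 0 for ponatinib 10 against 3 mg/kg. Over all 14314 genes the covariate left 653, 96, 369 and 258 calls in these 4 groups, and 0 for ponatinib 10 against 3 mg/kg. Length offsets gave 5 for imatinib, 4 for nilotinib 30 mg/kg and 2 for nilotinib 10 mg/kg, with 1110, 499 and 137 of 14314 genes called. An adjusted p below 0.01 gave 5 with imatinib, 3 with nilotinib 30 mg/kg and 0 for ponatinib 10 against 3 mg/kg, imatinib against nilotinib 30 mg/kg and ponatinib 10 against nilotinib 30 mg/kg. A 1.5-fold minimum gave 4 with nilotinib 30 mg/kg.

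No member was called for nilotinib 30 against 10 mg/kg in any setting. For nilotinib 10 mg/kg, DESeq2 size factors, upper-quartile factors and a fit without L-NAME each gave 1, a fit of the 16 mice gave 2, DESeq2 6 and limma 8, and an unadjusted p below 0.01 gave 6. Over all genes the same settings, in that order, gave 226, 212, 174, 286, 504, 1240 and 855 genes. For ponatinib 3 mg/kg, limma gave 4 (571 of all 14314 genes) and an unadjusted p below 0.01 gave 2 (449 genes). For ponatinib 10 against 3 mg/kg, limma gave 6 (995 of 14314 genes) and the 16 mice 0 (32 of 12464 genes). For ponatinib 10 against nilotinib 10 mg/kg, DESeq2 and limma gave 1 each (518 and 331 genes) and an unadjusted p below 0.01 gave 3 (964 genes). Imatinib against nilotinib 30 mg/kg gave 2 with limma (1075 genes) and 2 at an unadjusted p below 0.01 (1080 genes). Imatinib against ponatinib 10 mg/kg gave 1 at that threshold (585 genes). Ponatinib 10 against nilotinib 30 mg/kg gave 0 without L-NAME (218 genes), 0 in the 16 mice (126 genes) and 2 with limma (762 genes).

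The choices of libraries were made after seeing the data. Without the 3 libraries over 14% of reads outside genes, ponatinib 10 against 3 mg/kg gave 0 (37 of 14454 genes). Without the 3 libraries least like their group it gave 6, and nilotinib 10 mg/kg against control gave 3 (Apoa2, Apoc1 and Apoc4). Of all 14610 genes, 731 and 322 were called in these 2 comparisons. Without L-NAME replicate 2 or ponatinib 10 mg/kg replicate 2, no count moved except ponatinib 10 against nilotinib 10 mg/kg, which ranged from 0 to 1. Signs turned for uncalled values near 0. The log2 fold change of Apoa5 with nilotinib 30 mg/kg was -0.004 with the covariate, -0.089 with length offsets and -0.118 with limma, that of Apob with ponatinib 3 mg/kg was 0.021 with length offsets, and that of Apoa4 with nilotinib 10 mg/kg was -0.159 without the 3 libraries least like their group. The median correlation between members moved by less than the spread between pairs with ranks or without centring. With the longest transcript in place of merged exons, the control level of Apoe was 36190 TPM and that of Apoa2 14820 TPM, and the order of the 10 genes was the same.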
